A study of Mus musculus with 8 samples.

Results

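The transcripts described here encode 10 mouse CC chemokines, namely Ccl2, Ccl3, Ccl4, Ccl5, Ccl7, Ccl8, Ccl9, Ccl12, Ccl20 and Ccl22. They were found by matching the Ensembl identifiers of the count files to these symbols, which gave 10 of the 54532 genes counted. Poly(A) RNA was sequenced from hand-picked primary pancreatic islets of mice aged 25 to 30 weeks. Islets of wild-type mice and of mice labelled Sting-/- rested in culture overnight. They then received the solvent DMSO or 50 µg/mL DMXAA for 3 h, which gave 4 groups of 2 libraries. DMXAA is a small molecule that activates mouse STING, the adaptor that relays the detection of cytosolic DNA to interferon and inflammatory genes. The labels name no Cre driver, strain or clone, and whether replicate libraries stand for different mice is not stated. The p-values therefore describe the spread among libraries only, which could be technical.

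CC chemokines are small secreted proteins in which the first pair of conserved cysteines lie side by side. They bind G-protein-coupled receptors on leukocytes and steer their migration. In islets they are known as products of macrophages, endothelial cells, stromal cells and stressed endocrine cells. STING acts through the kinase TBK1 on the transcription factors IRF3 and NF-κB, and both are known to drive chemokine genes.

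The feature that names the family is visible in the coding sequence. The stretch around the adjacent cysteine codons is shown for 9 members, 5′ to 3′ on the coding strand, with those codons in capitals (GENCODE M21, mouse build mm10).
Ccl2: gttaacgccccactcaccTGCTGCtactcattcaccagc
Ccl7: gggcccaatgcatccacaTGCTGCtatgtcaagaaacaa
Ccl12: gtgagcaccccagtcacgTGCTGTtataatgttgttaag
Ccl8: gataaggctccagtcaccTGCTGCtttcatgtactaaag
Ccl4: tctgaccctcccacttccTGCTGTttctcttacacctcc
Ccl5: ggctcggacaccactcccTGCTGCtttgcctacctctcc
Ccl9: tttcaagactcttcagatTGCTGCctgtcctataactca
Ccl20: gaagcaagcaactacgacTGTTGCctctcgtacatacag
Ccl22: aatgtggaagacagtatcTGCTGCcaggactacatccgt
The stretch of Ccl2, at chr11:82036488-82036526 on the plus strand, lies within 1 coding exon of a gene with 3 exons. The stretches of Ccl4, at chr11:83663464-83663502, and of Ccl7, at chr11:82046520-82046558, are on the plus strand and also lie within 1 exon. That of Ccl5 is at chr11:83529227-83529265 on the minus strand. Of the stretches shown, only those of Ccl8 and Ccl20 are split over a pair of exons.

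Outside this codon pair the members differ enough for reads to be told apart. Ccl3 and Ccl4 were the most alike, with 68.4% identical bases in their aligned coding sequences, and the longest run that their transcripts share is 9 bases. No window of 31 or 50 bases of the Ccl3 or Ccl4 transcript occurred in a transcript of another gene, so at the level of exact matches their reads are not shared. The same held for every other member except Ccl9, of whose 2976 windows of 31 bases 4.03% also occurred in other genes. The exons of the members overlap no exon of another gene on either strand, so no such overlap makes their reads ambiguous. How the unstated strand setting of the counting bears on their levels was not tested. The ratio of Ccl3 to Ccl4 per exon length differed between libraries. For wild-type islets under DMSO it was 0.790 (11 against 12 counts) and 5.17 (30 against 5 counts). With DMXAA the wild-type ratio was 0.732 (796 against 937 counts) and 0.538 (458 against 733 counts). Knockout-labelled islets had ratios of 2.19 and 1.31 when given DMSO, and DMXAA-treated ones had 1.25 and 1.97. Ratios from so few counts as under DMSO cannot decide whether reads are shared.

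Total counts ran from 15624020 to 19601850 per library. The sum of 7 beta cell markers was between 160170 and 320350 CPM (counts relative to library size, adjusted by the TMM factors of edgeR) in each library, and that of the other islet hormone and alpha cell genes between 17317 and 30084 CPM. Sting1 was counted 39 and 41 times in the wild-type DMSO libraries, 23 and 39 times with DMXAA, 48 and 19 times in the DMSO libraries labelled Sting-/-, and 35 and 27 times in those with DMXAA. The targeted transcript was thus not lower in the latter (log2 difference 0.03, SE 0.47, edgeR quasi-likelihood test with Benjamini-Hochberg adjusted p = 0.984 under DMSO). Which part of the gene was deleted is not stated in the labels, and these libraries are called knockout-labelled. The first wild-type DMSO library stood apart, with a summed level of 6345 CPM for 11 acinar cell markers against 1258 CPM in the second and 336 to 2710 CPM elsewhere. The lowest sums, 390 and 336 CPM, were those of the knockout-labelled DMXAA libraries, against 1469 and 2157 CPM in knockout-labelled DMSO libraries. Between these groups 0 of the 11 were called with edgeR (7 at an unadjusted p under 0.05, 3 with DESeq2), with a median log2 fold change of -3.01. How this bears on the chemokine levels was not tested.

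DMXAA raised the transcripts of 5 chemokines in wild-type islets, the monocyte attractants Ccl2 and Ccl7 and the inflammatory chemokines Ccl3, Ccl4 and Ccl5. The fitted rise ran from 3.30-fold for Ccl5 to 100.8-fold for Ccl4. The call of Ccl5 was lost when some single libraries were left out, while those of Ccl2, Ccl3, Ccl4 and Ccl7 were kept. With 1 library left out in turn, the log2 fold change ran from 1.27 to 2.45 for Ccl5, from 2.48 to 4.03 for Ccl7, from 3.51 to 4.50 for Ccl2, from 4.50 to 5.84 for Ccl3 and from 6.12 to 7.47 for Ccl4. The highest values of Ccl4 and Ccl7 came without the first wild-type DMSO library, and those of Ccl3 and Ccl5 without the second. Ccl9 and Ccl22 did not pass the test, and Ccl8, Ccl12 and Ccl20 had too few counts to be tested. In the knockout-labelled islets no member passed the test. Summed over the 10 members, wild-type libraries held 20.6 and 19.0 CPM under DMSO against 168.5 and 181.4 CPM under DMXAA. Knockout-labelled libraries held 20.3 and 25.2 CPM under DMSO against 23.6 and 33.6 CPM under DMXAA.

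**Figure D1:**
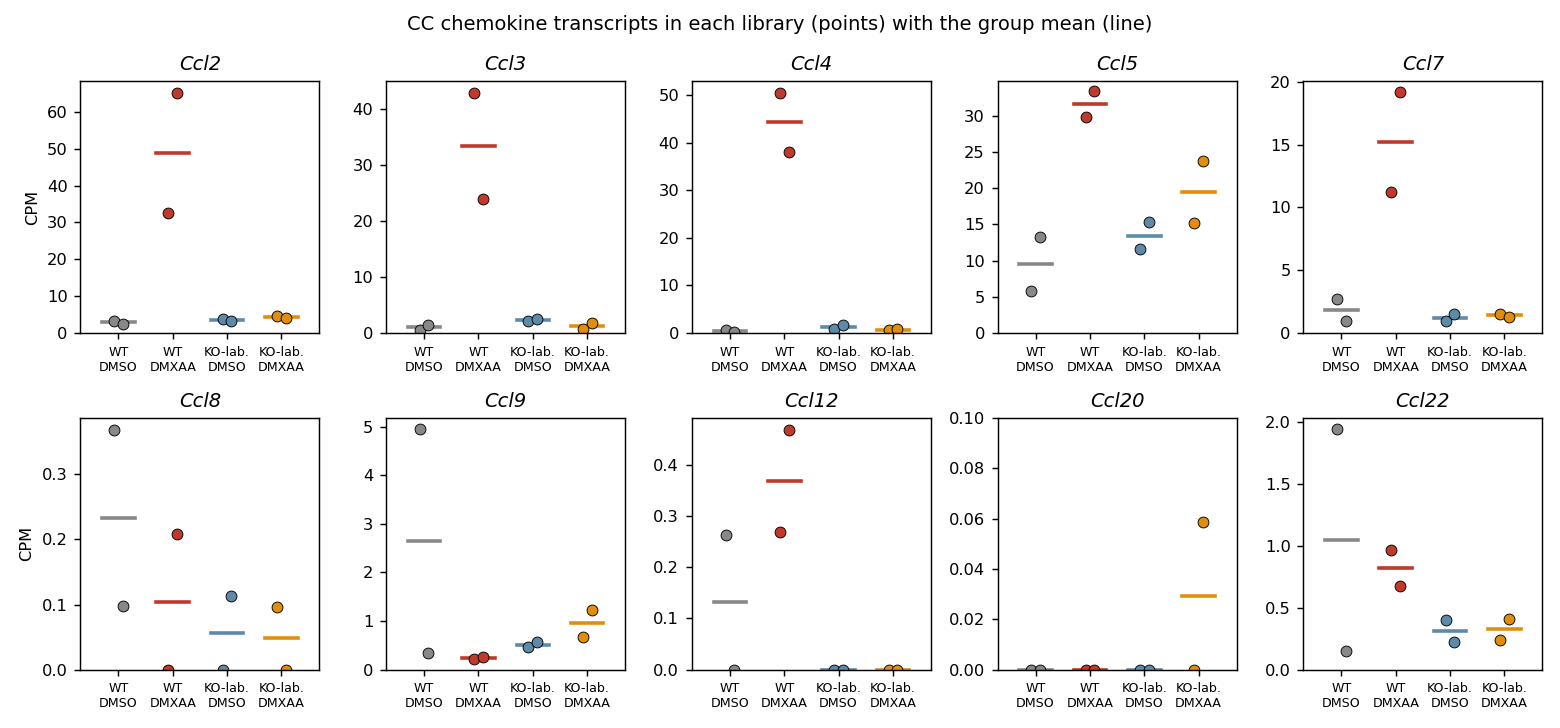
CPM of each member (vertical axes, each from 0) in the 8 libraries, by genotype label and treatment; points are libraries and lines are means of 2. For Ccl2, Ccl3, Ccl4, Ccl5 and Ccl7 both wild-type DMXAA libraries lie above the other 6, while the high points of Ccl9 and Ccl22 belong to the first wild-type DMSO library.

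Of the 10 members, 7 passed the filter on low counts. The 5 that rose had at least 10 counts in 5 or 6 of the 6 libraries outside wild-type DMXAA, so none of them passed only through the group where it was high. Over all 17055 genes tested, 1.11% were called higher with DMXAA in wild type and 0.375% lower, against 5 and 0 of the 7 members. The median log2 fold change was 3.06 over these 7 and 0.00 over all genes tested.

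Ccl2, the main attractant of monocytes through the receptor Ccr2, stood in wild type at 3.31 and 2.46 CPM under DMSO against 32.7 and 65.3 CPM under DMXAA. The knockout-labelled libraries held 3.87 and 3.34 CPM under DMSO against 4.60 and 4.15 CPM under DMXAA. Both wild-type DMXAA libraries were high, and they differed from each other by more than any other pair. The mean rose from 2.89 ± 0.604 to 49.0 ± 23.0 CPM (SD, n = 2), a log2 fold change of 4.09 (SE 0.33, edgeR adjusted p = 8.43e-06).

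Ccl7, a second ligand of Ccr2, lies 8.3 kb from Ccl2. It was at 2.74 and 0.935 CPM under DMSO against 11.3 and 19.2 CPM with DMXAA in wild type. The knockout-labelled values were 0.934 and 1.53 CPM under DMSO against 1.55 and 1.29 CPM with DMXAA, all within the range of the wild-type DMSO libraries apart from the lowest. The wild-type log2 fold change was 3.06 (SE 0.40, edgeR adjusted p = 0.000722) and 4.03 without the first DMSO library. Like Ccl2, Ccl7 was higher in the second wild-type DMXAA library, whereas Ccl3 and Ccl4 were higher in the first.

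Ccl12, a mouse ligand of Ccr2, was counted 5 and 0 times in wild-type DMSO and 5 and 9 times in wild-type DMXAA libraries, and no read was counted in the 4 knockout-labelled libraries. With 3 counts set as the floor of a group at 0, its wild-type DMXAA level was 4.66-fold above the knockout-labelled DMXAA floor. The floor allows for counting error in the group at 0 only, not in the 14 wild-type counts, so 4.66 is no strict bound. Ccl8, known in the mouse as a ligand of Ccr8, was counted 7 and 2 times, 0 and 4 times, 0 and 2 times and 2 and 0 times in the same order of groups, starting with wild-type DMSO. A response of either gene to DMXAA in wild type was not detectable at this depth.

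Ccl3 and Ccl4, also called MIP-1α and MIP-1β, attract macrophages and T cells, and Ccl3 binds Ccr1. Ccl4 was at 0.631 and 0.246 CPM in wild-type DMSO and at 50.4 and 38.1 CPM in wild-type DMXAA libraries. In knockout-labelled libraries it was at 0.867 and 1.64 CPM under DMSO against 0.533 and 0.819 CPM with DMXAA. Of the 5 members that rose, Ccl4 had the lowest mean under DMSO in wild type and the highest mean per exon length under DMXAA. Its mean rose from 0.439 ± 0.272 to 44.3 ± 8.70 CPM (SD, n = 2), with a log2 fold change of 6.65 (SE 0.37, edgeR adjusted p = 2.50e-07) that was 7.47 without the first wild-type DMSO library.

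Ccl3 was at 0.579 and 1.48 CPM under DMSO against 42.9 and 23.8 CPM with DMXAA in wild type. The knockout-labelled values were 2.20 and 2.49 CPM under DMSO against 0.775 and 1.87 CPM with DMXAA. The wild-type groups did not overlap, and the knockout-labelled DMXAA libraries were both below their DMSO libraries. The log2 fold change was 4.99 (SE 0.43, edgeR adjusted p = 3.29e-05) in wild type and -0.87 (SE 0.53, edgeR adjusted p = 0.820) in knockout-labelled islets. Without the second wild-type DMSO library the wild-type value was 5.84.

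Ccl5, or RANTES, a ligand of Ccr1 and Ccr3, was the most abundant member before treatment. It was at 5.79 and 13.3 CPM in wild-type DMSO and at 29.8 and 33.4 CPM in wild-type DMXAA libraries. In knockout-labelled libraries it was at 11.6 and 15.3 CPM under DMSO against 15.2 and 23.8 CPM with DMXAA, and these groups overlapped. The wild-type log2 fold change was 1.72 (SE 0.35, edgeR adjusted p = 0.0410). Without the second wild-type DMSO library it was 2.45 (adjusted p = 0.00196). The call was lost without the first wild-type DMSO library (log2 fold change 1.27, adjusted p = 0.0742), without the first or the second wild-type DMXAA library (adjusted p = 0.108 and 0.149) and without either knockout-labelled DMSO library (adjusted p = 0.0612 and 0.0610). It was also lost with no filter on low counts (adjusted p = 0.211), with the older form of the test (0.0510) and in a fit of the wild-type groups alone (0.0908).

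Ccl5 is also known as a product of T and natural killer cells. The natural killer and cytotoxic cell gene Nkg7 was counted once in each of 2 libraries and was at 0 in the other 6, and Ncr1 was at 0 in all 8. Lymphocyte markers, 11 genes in all, summed to 34.9 and 35.1 CPM in knockout-labelled islets under DMSO and to between 2.15 and 10.1 CPM in the other 6 libraries. In those first 2 libraries the B cell genes Cd79a, Cd79b and Ms4a1 were among those that led the sum. The part of lymphocytes in the levels of Ccl5 was not tested.

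**Figure D2:**
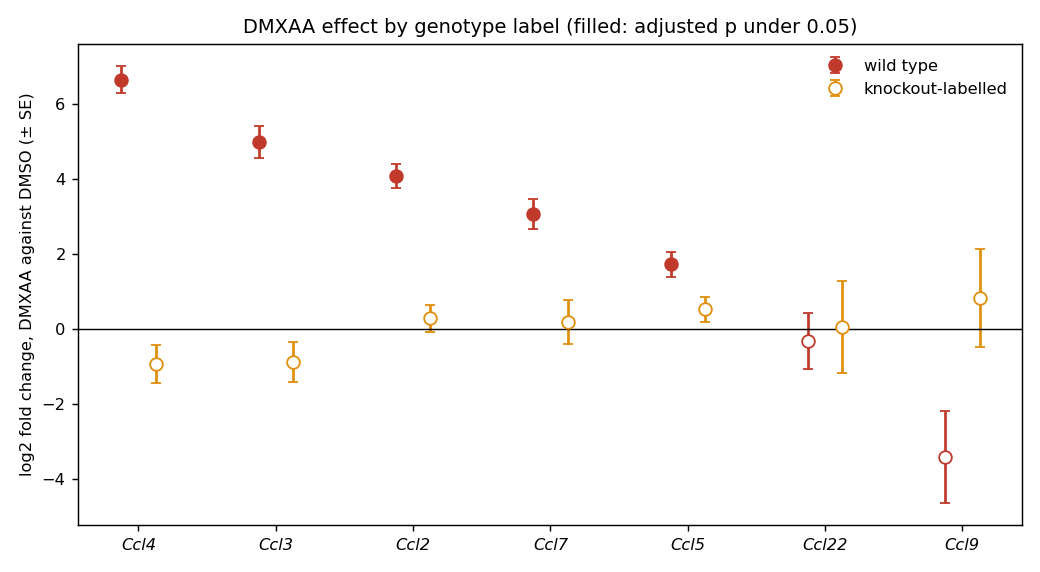
Log2 fold change of DMXAA against DMSO (vertical axis, bars are SE) for the 7 members tested, in wild-type and knockout-labelled islets; filled points passed an adjusted p of 0.05. The wild-type points fall from 6.65 for Ccl4 to -3.41 for Ccl9, and none of the knockout-labelled points is filled.

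Ccl9, a mouse ligand of Ccr1, was counted 94 and 7 times in wild-type DMSO and 4 and 5 times in wild-type DMXAA libraries. It was counted 7 and 10 times in knockout-labelled DMSO and 14 and 21 times in knockout-labelled DMXAA libraries. The wild-type DMSO libraries lay on either side of the knockout-labelled ones, and the log2 fold change of -3.41 (SE 1.23, edgeR adjusted p = 0.360) rested on the first of them. Without that library it was -0.51. Without the second it was -4.33 (adjusted p = 0.00193), and DESeq2 on all 8 libraries gave -3.46 (adjusted p = 0.0261). Its neighbour Ccl6 had 93 counts in the first wild-type DMSO library and 1 to 8 in the other 7.

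Ccl22, a ligand of Ccr4 made by dendritic cells and macrophages, was counted 37 and 3 times in wild-type DMSO, 18 and 13 times in wild-type DMXAA, 6 and 4 times in knockout-labelled DMSO and 5 and 7 times in knockout-labelled DMXAA libraries. The wild-type groups overlapped, with a log2 fold change of -0.32 (SE 0.75, edgeR adjusted p = 0.891) that became 2.44 without the first wild-type DMSO library. Only 1 of the 6 libraries outside wild-type DMXAA had at least 10 counts of Ccl22. The receptor Ccr7, carried by mature dendritic cells and lymphocytes, was also high in that first library, at 90 counts against 10 in the second. It was about as high in both knockout-labelled DMSO libraries, at 76 and 83 counts, where Ccl22 had 6 and 4, and had 11 to 20 counts in the DMXAA libraries. Ccl20, the ligand of Ccr6, had 1 count in the second knockout-labelled DMXAA library and 0 in the other 7.

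In the knockout-labelled islets 0 of the 7 members tested were called with edgeR, 0 at an unadjusted p under 0.05 and 0 with DESeq2, where 0.375% of all genes were called in either direction. The log2 fold changes were 0.29 for Ccl2 (SE 0.36), 0.19 for Ccl7 (SE 0.58), 0.52 for Ccl5 (SE 0.34) and -0.94 for Ccl4 (SE 0.50). Those of Ccl9 and Ccl22 were 0.83 (SE 1.31) and 0.05 (SE 1.23), each with an error larger than the change.

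The difference between the DMXAA effects, knockout-labelled minus wild type, was tested directly. It was below 0 for 5 of the 7 members tested and above 0 for 2, while over all genes it was above 0 for 8510 of 17055. For 3 members, Ccl4, Ccl3 and Ccl2, it was called lower, as it was for 0.528% of all genes. The difference was -7.59 for Ccl4 (SE 0.67, edgeR adjusted p = 7.46e-05), -5.86 for Ccl3 (SE 0.70, adjusted p = 0.00111) and -3.80 for Ccl2 (SE 0.49, adjusted p = 0.00129). For Ccl7 it was -2.87 (SE 0.73, adjusted p = 0.104), which passed with DESeq2 (adjusted p = 0.00261) and without the first wild-type DMSO library (-3.84, adjusted p = 0.0317). For Ccl5 it was -1.20 (SE 0.48, adjusted p = 0.504), and it passed without the second wild-type DMSO library (-1.93, adjusted p = 0.0322). For Ccl9 it was 4.25 (SE 1.85, adjusted p = 0.573), which passed without that same library (5.17, adjusted p = 0.0109), and for Ccl22 it was 0.37 (SE 1.45). Leaving out 1 library moved the difference of Ccl4 to -8.40 (the first wild-type DMSO library) and that of Ccl3 to -6.71 (the second wild-type DMSO library) or -6.59 (the second knockout-labelled DMXAA library). Ccl8, Ccl12 and Ccl20 were not tested in any comparison.

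Under DMXAA, Ccl4, Ccl3, Ccl2 and Ccl7 were lower in knockout-labelled than in wild-type islets, 4 of 7 members where 1.37% of all genes were lower. The log2 differences were -6.04 (SE 0.35, edgeR adjusted p = 3.98e-07), -4.69 (SE 0.42, adjusted p = 4.89e-05), -3.48 (SE 0.31, adjusted p = 2.27e-05) and -3.41 (SE 0.42, adjusted p = 0.000355). Without the second knockout-labelled DMXAA library that of Ccl3 was -5.42. The differences of Ccl5, at -0.71 (SE 0.33, adjusted p = 0.405), Ccl22, at -1.35 (SE 0.96, adjusted p = 0.604), and Ccl9, at 1.94 (1.48 to 2.29 with 1 library left out, adjusted p = 0.644), did not pass. This comparison and the difference of the effects share the wild-type and knockout-labelled DMXAA libraries and are not independent.

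Under DMSO, 0 of the 7 members tested differed between the genotype labels with edgeR, 1 had an unadjusted p under 0.05 and DESeq2 called 0, with 0.223% of all genes called. The member with the low unadjusted p was Ccl4, at 0.867 and 1.64 CPM in knockout-labelled against 0.631 and 0.246 CPM in wild-type libraries, a log2 difference of 1.55 (SE 0.54, adjusted p = 0.301). Ccl3 was also higher in both knockout-labelled DMSO libraries than in either wild-type one, with a log2 difference of 1.17 (SE 0.55, adjusted p = 0.412). The log2 difference was 0.49 (SE 0.36) for Ccl5, 0.32 (SE 0.38) for Ccl2, -0.54 (SE 0.56) for Ccl7, -1.72 (SE 0.96) for Ccl22 and -2.31 (SE 1.09) for Ccl9. Without the second wild-type DMSO library Ccl9 passed the test (-3.25, adjusted p = 0.0172), and without the first its difference was 0.57.

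Per exon length, the order of the members changed with DMXAA in wild type. Ccl5 led the wild-type DMSO group at 9.93 CPM per kb, apart from the next member, and made up 52.9% of the summed level. Ccl2, Ccl7, Ccl3, Ccl9 and Ccl4 followed at 2.54 to 0.665 CPM per kb, and each of these overlapped the next. After DMXAA the order was Ccl4 at 67.1, Ccl3 at 43.5, Ccl2 at 43.0, Ccl5 at 32.9 and Ccl7 at 19.0 CPM per kb. Ccl4 was apart from Ccl3, the libraries of Ccl3, Ccl2 and Ccl5 overlapped, and Ccl7 was apart from the rest. Ccl5 led again in both knockout-labelled groups, at 14.0 CPM per kb with DMSO and 20.3 CPM per kb with DMXAA, with 58.1% and 69.4% of the summed level.

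**Figure D3:**
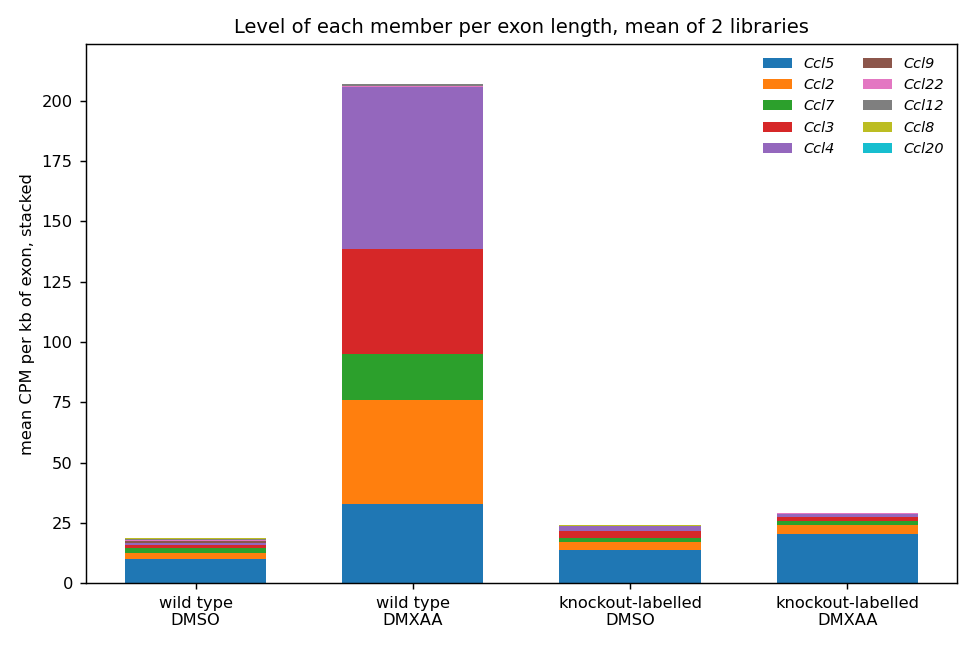
Mean level of each member per kb of exon (CPM per kb, 2 libraries a group), stacked by group. The summed level is 18.8 in wild-type DMSO, 206.9 in wild-type DMXAA, and 24.1 and 29.2 CPM per kb in the knockout-labelled groups, where Ccl5 fills most of the bar.

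Of the members, 8 lie on chromosome 11 in a pair of stretches 1.41 Mb apart (mm10). The first, 82035571 to 82116799, holds Ccl2, Ccl7, Ccl12 and Ccl8 in 81.2 kb, and the second, 83525778 to 83664683, holds Ccl5, Ccl9, Ccl3 and Ccl4 in 138.9 kb. Some genes that rose lay beside each other, Ccl2 and Ccl7 at 8.3 kb and Ccl3 and Ccl4 at 13.2 kb. In the same stretches lay genes that did not pass the test or were barely counted. Ccl11, which attracts eosinophils and lies between Ccl7 and Ccl12, had a log2 fold change of 1.34 (SE 0.61, edgeR adjusted p = 0.413) in wild type. Ccl9 and Ccl6 lie between Ccl5 and Ccl3.

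Of the 46 other genes within 100 kb of a member, 14 were tested. With DMXAA in wild type 2 of these were called higher and 0 lower, where 1.11% and 0.375% of all genes tested were. Both genes called higher are named after their values were seen. Heatr9 lies 3603 bases from Ccl5 and was counted 6 and 0 times with DMSO and 58 and 47 times with DMXAA in wild type, and 0 to 4 times in the knockout-labelled libraries. It passed the count filter only through the wild-type DMXAA libraries, so its call follows in part from the filter and is not read further. Cx3cl1, which encodes the membrane-bound chemokine fractalkine, lies 20310 bases from Ccl22 on chromosome 8 and rose from 126 and 255 to 874 and 756 counts (log2 fold change 2.17, edgeR adjusted p = 0.000523). Ccl22 itself did not pass the test.

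**Figure D4:**
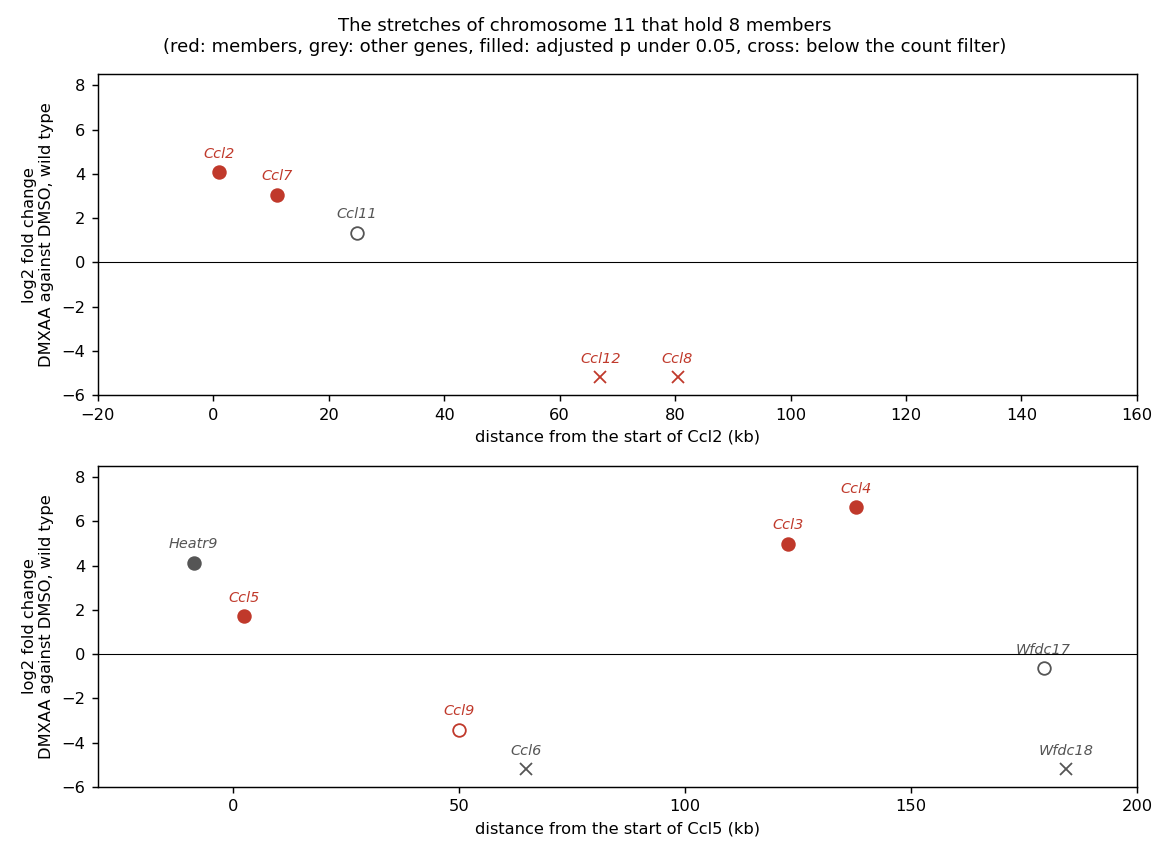
Log2 fold change of DMXAA against DMSO in wild type (vertical axis) against distance in kb from the start of Ccl2 (top) and of Ccl5 (bottom) for members and for neighbouring genes with an official name; filled points passed an adjusted p of 0.05 and crosses, drawn at the foot, mark genes below the count filter. Ccl2 and Ccl7 rise at the left of the top panel, and Ccl5, Ccl3 and Ccl4 in the bottom panel, with Ccl9 and Ccl6 between them.

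Promoters of Ccl3, Ccl8, Ccl9, Ccl12, Ccl20 and Ccl22, 6 of the 10, were matched in the RefSeq table of build GRCm38.p6, with 250 bases before and 50 after the start of each gene. Of these genes Ccl3 is the one that rose, and the 100 bases before its start, at chr11:83649379-83649478 on the minus strand, are shown for that reason, with the single motif match in capitals.
Ccl3: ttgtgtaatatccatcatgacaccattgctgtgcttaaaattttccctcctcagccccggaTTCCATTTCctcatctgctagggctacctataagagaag
The match is to GAAANNGAA, an ISRE-like pattern of the kind bound by interferon regulatory factors, read on the opposite strand from position -39. This pattern occurred in 8.6% of 27025 promoters of the same length. The κB-like pattern GGNNNTTCC, searched on both strands and present in 18.4% of all promoters, was in the windows of Ccl9, Ccl12 and Ccl20 and not in that of Ccl3. Its stricter form GGANNTTCC, in 4.2% of promoters and contained in the looser pattern, was found only in Ccl12, at -17. The AP-1 pattern TGANTCA, in 7.9% of promoters, was found in the window of Ccl9, and TATAAA, in 14.2%, in those of Ccl8, Ccl9 and Ccl12. None of these patterns was in the window of Ccl22. The matches describe letters only.

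Receptors known to bind these ligands had few counts. Ccr2, the receptor of Ccl2, Ccl7 and Ccl12, was counted 0 to 2 times in each library. Ccr3, Ccr4 and Ccr6 were also below the count filter, with at most 8 counts. Ccr1 was counted 25 and 17 times before and 4 and 5 times after DMXAA in wild type (log2 fold change -2.14, SE 0.67, edgeR adjusted p = 0.236).

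Of 12 genes listed as CC receptors, 5 were tested and 1 rose in wild type, where 1.11% of all genes tested were called higher. That gene was Ccrl2, an atypical receptor that binds chemerin and does not signal through G proteins. It was at 6.15 and 6.84 CPM under DMSO against 83.7 and 67.0 CPM with DMXAA in wild type, and at 7.08 to 9.67 CPM in the 4 knockout-labelled libraries. The log2 fold change was 3.53 (SE 0.21, edgeR adjusted p = 3.89e-07), and the difference between the effects was -3.42 (SE 0.29, adjusted p = 5.82e-05).

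The other chemokines and the genes around them give the setting. Of 14 other CC ligands 4 were tested, Ccl11, Ccl25, Ccl27a and Ccl28, and 0 were called in wild type with edgeR (1 at an unadjusted p under 0.05, 0 with DESeq2). Of 11 CXC ligands tested, 4 were called higher in wild type, where 1.11% of all genes tested were. Cxcl10, which attracts T cells through Cxcr3, had a log2 fold change of 6.68 (7.55 without the first wild-type DMSO library), and the neutrophil attractants Cxcl2 and Cxcl1 had 3.60 (4.41 without the second) and 3.03. The largest edgeR adjusted p among these 3 was 8.79e-05. The other was Cxcl11, with 4 and 0 counts under DMSO and 141 and 108 under DMXAA in wild type and 3 or 4 in each knockout-labelled library, which passed the count filter only through the wild-type DMXAA libraries. Over all genes tested 1.11% were called higher in wild type and 0.375% lower. Of 23 genes listed as inducers and feedback regulators of chemokines, 10 were called higher in wild type and 0 lower. One of them passed the count filter only through the wild-type DMXAA libraries. This was Ifnb1, which encodes interferon-β and was counted 0 and 0 times with DMSO and 536 and 261 times with DMXAA. With 3 counts set as the floor of the DMSO group, its DMXAA level was 277-fold above that floor. The NF-κB feedback genes Tnfaip3 and Nfkbia rose by log2 fold changes of 2.24 and 1.62, with edgeR adjusted p of 8.88e-06 and 2.47e-05. In knockout-labelled islets 0 of the 23 were called with edgeR (5 at an unadjusted p under 0.05, 0 with DESeq2).

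In bulk islets, more chemokine-making cells and more RNA per cell cannot be told apart. The summed level of 18 macrophage markers was 158 and 115 CPM in wild-type DMSO libraries and 108 and 111 CPM in wild-type DMXAA libraries, so that both DMXAA libraries lay below both DMSO libraries. It was 140 and 134 CPM under DMSO against 138 and 245 CPM with DMXAA in knockout-labelled libraries. Of 17 tested, 0 were called in wild type with edgeR (5 at an unadjusted p under 0.05, 0 with DESeq2), and their median log2 fold change was -0.27. The log2 fold change was above 0 for 7 of the 17. In knockout-labelled islets it was above 0 for all 17, with a median of 0.46, and 0 were called with edgeR. In wild type Adgre1 was counted 127 and 86 times with DMSO and 40 and 51 times with DMXAA, and Csf1r 231 and 134 times with DMSO and 96 and 62 times with DMXAA. Cd14 and Mertk lay the other way, at 115 and 79 against 164 and 194 counts and at 63 and 86 against 120 and 123 counts. Dendritic cell markers summed to 11.7 and 10.1 CPM in wild-type DMSO against 6.08 and 6.24 CPM in wild-type DMXAA libraries. Of 2 tested, 1, Itgax, was called lower in wild type, where 0.375% of all genes tested were. Endothelial markers summed to 866 and 1100 CPM in wild-type DMSO and to 678 and 707 CPM in wild-type DMXAA libraries, and 3 of 10 were called lower. They summed to 818 and 747 CPM in knockout-labelled DMSO and to 1363 and 1246 CPM in knockout-labelled DMXAA libraries. Fibroblast markers summed to 276 and 100.2 CPM in wild-type DMSO and to 61.2 and 122 CPM in wild-type DMXAA libraries, which overlapped, against 81.4 and 79.8 CPM in knockout-labelled DMSO and 175 and 143 CPM in knockout-labelled DMXAA libraries. Of 7 fibroblast markers 0 were called in wild type with edgeR (2 at an unadjusted p under 0.05, 0 with DESeq2). The log2 fold change was below 0 for each of these 7, with a median of -1.09. In wild type the summed levels of the macrophage, dendritic cell and endothelial lists were thus lower with DMXAA in both libraries, and those of the fibroblast list overlapped. The part of these cells in the chemokine levels was not tested.

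The genes whose profile over the 8 libraries was most like that of a member were listed as a description, using Pearson's r of log2(CPM + 1) over 12800 genes with a mean of at least 1 CPM. For Ccl4 they were Cxcl11 (0.995), Ifi208 (0.991) and Cxcl10 (0.990). For Ccl2 they were Parp12 (0.992), Tgtp2 (0.991) and Ifit3b (0.990). For Ccl3 they were Tor3a (0.991), Ppp1r15a (0.982) and Tnf (0.978), and for Ccl7 Pxk (0.989), Clic4 (0.987) and Tgtp1 (0.984). These genes share the libraries and the wild-type DMXAA group that sets each profile apart. For Ccl5 they were Zfp513 (0.971), Reep2 (0.970) and Pim1 (0.964). The nearest genes of Ccl9 were Ppp3r1 (0.988), Tmem62 and Drg1, and those of Ccl22 were C1galt1c1 (0.976) and Tmem175, for which the first wild-type DMSO library sets much of the spread of the member.

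**Figure D5:**
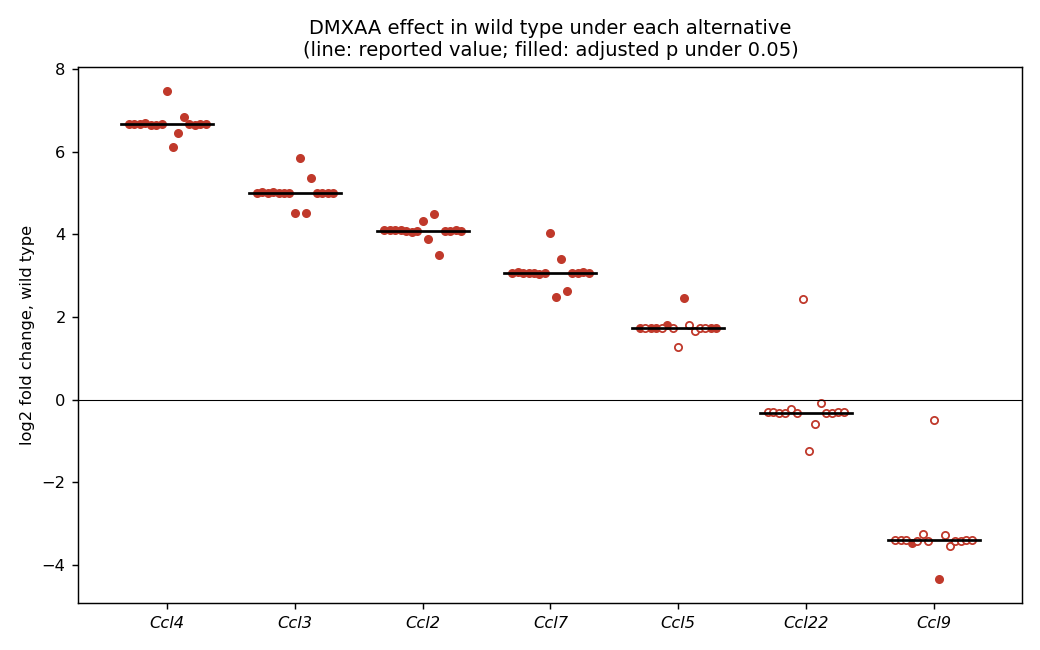
Log2 fold change of DMXAA against DMSO in wild type (vertical axis) for the 7 members tested, as reported (line) and under each alternative analysis and with each library left out (points, filled where the adjusted p was under 0.05). Ccl4, Ccl3, Ccl2 and Ccl7 stay filled at every point, between 2.48 and 7.47, while Ccl5 is filled at some points and Ccl22 lies on both sides of 0.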

How the data were processed

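Poly(A) libraries of mouse primary islets were read as paired ends, per the labels' protocols. The deposited files hold raw counts per Ensembl gene for 8 libraries, made by the authors with HISAT2 and HTSeq on mm10, per the submitters' processing notes. The sources used here give no versions, annotation release or strand setting. Symbols and positions came from GENCODE M21, which holds 54495 of 54532 identifiers. Total counts were 15624020 to 19601850 per library. No library was a copy of its partner (chi-square per degree of freedom 7.41 to 59.8).

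Counts were analysed with edgeR 4.0.16 under R 4.3.3. The filterByExpr filter by group left 17055 genes, libraries were scaled by TMM, and a model of the 4 group means was fitted over 8 libraries with the quasi-likelihood F-test (legacy=FALSE, robust), which left 4 residual degrees of freedom. P-values were adjusted by Benjamini-Hochberg over all genes tested, and a value under 0.05 was called. SE was computed as the size of the log2 fold change over the root of F. CPM were computed from the counts with TMM-scaled library sizes. Floors of 3 counts cover counting error only, since PCR copies are not independent molecules. They cover it in the group at 0 and not in the higher group. The steps were tested on simulated data.

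Alternatives were RLE scaling, no filter or a stricter one (10 counts in 4 libraries), DESeq2 1.42.0, the older quasi-likelihood form, a replicate block, a fit of the groups compared alone and each library left out. The members, gene lists and tests were chosen with earlier results of these data known. The genes named are the members, with up to 4 called genes of each other list and the known receptors of the members; likeness lists hold the 3 genes of highest r. Some genes and 1 sequence that these rules name are not reported here. Sequence windows of 31 and 50 bases were compared over all GENCODE M21 transcripts, and promoters came from RefSeq.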

Additional observations from a re-analysis of the deposited data

Results flagged for a closer look

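The effect of DMXAA differed between the genotype labels, by the test of the difference itself, for the following genes, each with the log2 difference (knockout-labelled minus wild type) and its edgeR adjusted p. Among the CC chemokines these were Ccl4 (-7.59, 7.46e-05), Ccl3 (-5.86, 0.00111) and Ccl2 (-3.80, 0.00129). Among the receptors it was Ccrl2 (-3.42, 5.82e-05). Of the CXC ligands, Cxcl10 (-7.12, 0.000383), Cxcl1 (-2.81, 0.000687) and Cxcl2 (-3.90, 0.00209) responded less in knockout-labelled islets, and Cxcl12, a chemokine of stromal cells, had a difference in the other direction (2.39, 0.00865). Of the inducers and feedback genes, Tnfaip3 (-2.69, 0.000132), Irf1 (-2.19, 0.000246), Nfkbia (-1.78, 0.000526) and Stat2 (-1.62, 0.0105) were flagged. With 1 library left out, the call of Stat2 was lost without the first wild-type DMSO, the second wild-type DMXAA or either knockout-labelled DMSO library (edgeR adjusted p 0.0578 to 0.0751), and that of Cxcl12 without the first knockout-labelled DMSO library (edgeR adjusted p 0.0764), while without the second wild-type DMXAA library Cxcl12 was at 3.00. Without the first wild-type DMSO library Cxcl10 was at -7.98, and without the second Cxcl2 was at -4.70. Groups of 2 libraries are too small for a test of single outlying libraries.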

How the results depend on the processing

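With 1 library left out, the members called numbered 4 to 6 in wild type (5 reported), 3 to 5 for the difference of the effects (3 reported), 0 to 1 between the genotype labels under DMSO (0 reported), 0 in knockout-labelled islets and 4 between the labels under DMXAA. In all alternatives run, Ccl4, Ccl3 and Ccl2 stayed called in wild type, in the difference of the effects and between the labels under DMXAA. Ccl7 stayed called in wild type and between the labels under DMXAA, and crossed the threshold only in the difference of the effects. Ccl5 and Ccl9 crossed it in wild type and in the difference of the effects, and Ccl9 also between the labels under DMSO. The values are given above.

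Leaving out 1 library moved the log2 fold change of Ccl22 from -1.23 to 2.44 in wild type, from -0.33 to 0.48 in knockout-labelled islets, from -2.38 to 1.29 for the difference of the effects and from -2.66 to 1.01 between the labels under DMSO. That of Ccl7 ran from -0.10 to 0.61 in knockout-labelled islets and from -1.15 to 0.40 between the labels under DMSO, where Ccl9 ran from -3.25 to 0.57. Same-numbered libraries did not deviate together (6 correlations from -0.15 to 0.15). With 2 libraries a group, this cannot decide whether the numbers mark a shared mouse, which the labels do not state. With the replicate number as a block, the members called were as reported except that Ccl22 in knockout-labelled islets went from 0.05 to -0.0149, on neither side called.

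Over all genes, 253 were called in wild type and 154 to 958 with 1 library left out, the most without the second wild-type DMSO library. In knockout-labelled islets 64 were called, 2 to 113 with 1 library left out, 177 with no filter, 2 with the stricter filter, 154 with DESeq2, 29 with the older form of the test and 143 in a fit of those groups alone. For the difference of the effects 204 were called, 92 to 266 with 1 library left out and 313 with DESeq2. Between the labels under DMSO 38 were called, 1 to 216 with 1 library left out, 159 with no filter, 18 with the stricter filter, 155 with DESeq2 and 17 with the older form. Under DMXAA 407 were called, 205 to 746 with 1 library left out and 619 with DESeq2. The κB-like pattern was in 3 promoters, and its stricter form in 1. The cause of these shifts was not tested. Ccl8, Ccl12 and Ccl20 had too few counts to be tested.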
